A study of Mus musculus with 6 samples.

Results

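The Par and Crumbs complexes are the protein assemblies that mark the apical surface of an epithelial cell, and 10 of their genes were followed here after forced expression of Insm1 in the embryonic mouse neocortex. The members were taken by gene symbol: the scaffolds Pard3 and Pard3b, the adaptors Pard6a, Pard6b and Pard6g, the atypical protein kinases C Prkci and Prkcz, the transmembrane proteins Crb1 and Crb2, and the scaffold Mpp5 (also known as Pals1). All 10 were among the 22001 genes of the count table, and all 10 passed the filter on low counts that left 13560 genes to be tested. RNA came from neocortical cells at E14.5, 24 h after in utero electroporation at E13.5, a method in which DNA injected into the brain ventricle is driven by current into the cells lining it. Cells were sorted for the red fluorescent protein mCherry. The control plasmid encoded mCherry only, and the other plasmid encoded Insm1, a zinc-finger transcription factor of neural progenitors, as well as mCherry, with 3 RNA-seq libraries for each. Neither the mouse strain, nor the promoter of the plasmids, nor the number of embryos behind a library is stated in the labels.

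In neural progenitors the ventricular surface is the apical side, and the cells are joined there by a belt of adherens junctions. PAR3, PAR6 and atypical PKC form a complex under the control of the small GTPase CDC42, in which the kinase keeps basolateral proteins out of the apical domain. Crumbs proteins span the membrane and bind PALS1 through their short intracellular tail, and PALS1 links them to PATJ and to PAR6. Progenitors that leave the ventricular surface to become basal progenitors or neurons lose this apical attachment, a step called delamination, and the study asks how Insm1 acts in it.

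Library totals lay between 30017645 and 31645135 counts. Levels are given as CPM, counts per 1000000 after TMM scaling, which adjusts library totals for composition, and as mean ± SD over libraries. Insm1 itself was at 222, 331 and 371 CPM in controls 1, 2 and 3 and at 1570, 2173 and 1436 CPM in Insm1 libraries 1, 2 and 3. Counts of Insm1 pool plasmid and chromosomal transcripts. The sorted cells carried markers of progenitors and of neurons: the radial glia gene Hes5 was at 1260 ± 211 CPM (SD, n = 3) in controls, the proneural gene Neurog2, counted among basal progenitor markers, at 380 ± 61.0 CPM (SD, n = 3), and neuronal tubulin Tubb3 at 1746 ± 80.0 CPM (SD, n = 3). Markers of endothelium and choroid plexus summed to at most 1.78 and 0.718 CPM in any library. Control 2 stood apart from controls 1 and 3 in several marker sums. Cajal-Retzius markers summed to 30.2 CPM against 122 and 117 CPM (30.3 to 46.6 CPM in Insm1 libraries). Microglia markers summed to 33.3 CPM against 0.648 and 4.01 CPM (5.59 to 18.1 CPM in Insm1 libraries). Haemoglobin and other erythroid genes summed to 5258 CPM against 715 and 307 CPM (3497 to 4891 CPM in Insm1 libraries). In Cajal-Retzius and erythroid sums control 2 was thus closer to the Insm1 libraries than controls 1 and 3 were. Without control 2 the members again gave 0 calls, with log2 fold changes of -0.60 for Crb2, -0.48 for Pard3b, -0.22 for Prkci and 0.24 for Pard6g. That fit keeps controls 1 and 3, which lay further from the Insm1 libraries in Cajal-Retzius and erythroid sums. Whether the numbered libraries are from different litters is not in the labels, and the p-values therefore describe library-to-library spread, some of which may be technical.

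No member passed the test between Insm1 and control. In edgeR's quasi-likelihood test with Benjamini-Hochberg adjustment over all 13560 genes, 0 of 10 members were called at an adjusted p below 0.05, where 3.35% of all tested genes were called. At an unadjusted p below 0.05 there were 4 members, 1 higher (Pard6g) and 3 lower (Pard3b, Prkci and Crb2), against 7.56% of all tested genes higher and 9.69% lower. DESeq2, a second count test, called 2 members, Pard6g higher and Crb2 lower, against 7.6% of the genes to which it gave an adjusted p (3.18% higher and 4.42% lower). The limma-voom test and limma on log2 TPM called 0. The median log2 fold change of the members was -0.14, beside -0.01 over all tested genes, with 7 members negative and 3 positive.

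**Figure D1:**
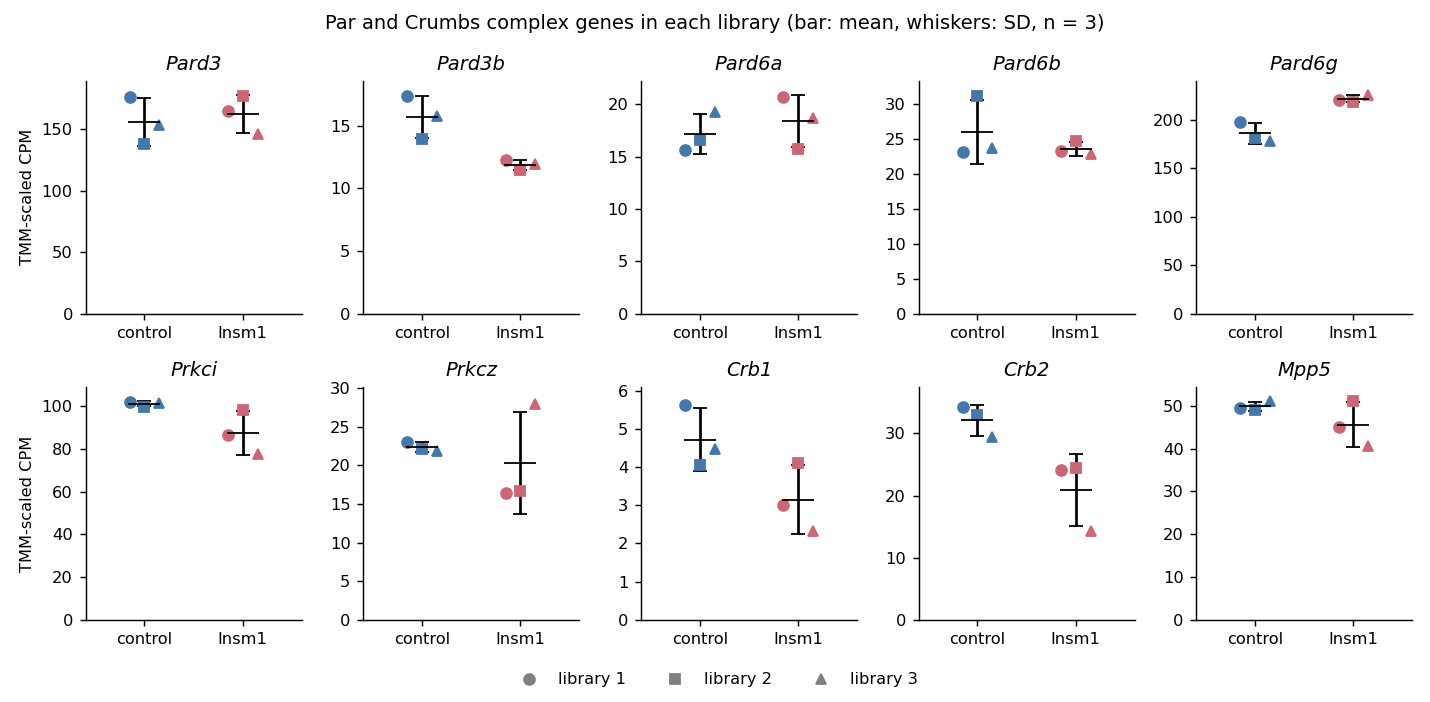
TMM-scaled CPM of each of the 10 genes in the 3 control libraries (blue) and the 3 Insm1 libraries (red), with the marker shape giving the library number, the horizontal bar the mean and the whiskers the SD. Groups are apart for Pard3b, Pard6g, Prkci and Crb2 and overlap for the other genes.

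The transmembrane proteins had the 2 lowest estimates. Crb2, a Crumbs protein of the neuroepithelium, was at 34.2, 32.9 and 29.4 CPM in controls 1, 2 and 3 and at 24.0, 24.5 and 14.3 CPM in Insm1 libraries 1, 2 and 3. Every Insm1 library lay below every control, and Insm1 library 3 lay well below the other two. The mean was 1.54-fold lower with Insm1 (log2 fold change -0.62, standard error 0.19, 95% interval -1.04 to -0.20, edgeR adjusted p = 0.121). DESeq2 called Crb2 lower with an adjusted p of 0.0243. Without Insm1 library 3 the log2 fold change of Crb2 was -0.41 and its edgeR adjusted p 0.189. Crb1, the paralog best known from retinal degeneration, was the least abundant member, with raw counts of 174, 125 and 137 in the controls and 93, 127 and 72 in the Insm1 libraries. These corresponded to 4.72 ± 0.817 CPM (SD, n = 3) and 3.15 ± 0.903 CPM (SD, n = 3). Insm1 library 2 (4.12 CPM) lay just above control 2 (4.06 CPM), so the groups overlapped. The estimate for Crb1 was close to that for Crb2 but its interval was wide (log2 fold change -0.58, 95% interval -1.23 to 0.06, edgeR adjusted p = 0.350).

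Crb1 (ENSMUSG00000063681) lies on chromosome 1 of GRCm38, from 139197056 to 139377100 on the minus strand, and Crb2 (ENSMUSG00000035403) on chromosome 2, from 37776249 to 37799103 on the plus strand. The exons of Crb2 share 113 bases with those of Dennd1a, and no exon of the other 9 members overlaps that of another gene in the table. Their promoter windows, 250 bases before to 50 after the start of a transcript, are shown because these 2 genes had the lowest estimates and because the plasmid supplied a DNA-binding factor. The sequences are from RefSeq on GRCm38.p6, at chr1:139377027-139377326 (minus strand) and chr2:37775999-37776298 (plus strand). Capitals mark GGGGNC, in which N is any base, or its reverse complement. The fixed letters are from the core of the binding consensus known for Insm1. That longer consensus was not used here, and a stretch in capitals need not fit it.
Crb1: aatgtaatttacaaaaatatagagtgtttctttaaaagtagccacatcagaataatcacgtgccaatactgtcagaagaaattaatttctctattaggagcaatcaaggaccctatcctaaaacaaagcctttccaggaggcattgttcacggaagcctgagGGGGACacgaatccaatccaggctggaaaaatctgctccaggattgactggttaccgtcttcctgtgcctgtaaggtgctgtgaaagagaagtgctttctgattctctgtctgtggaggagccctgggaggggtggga
Crb2: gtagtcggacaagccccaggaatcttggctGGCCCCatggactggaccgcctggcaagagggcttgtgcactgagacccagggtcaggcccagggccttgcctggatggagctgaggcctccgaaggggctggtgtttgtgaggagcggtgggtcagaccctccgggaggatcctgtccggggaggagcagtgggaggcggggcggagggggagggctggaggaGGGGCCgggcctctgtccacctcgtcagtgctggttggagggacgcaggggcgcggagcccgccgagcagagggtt

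Windows were found for 8 of the 10 members, 12 windows in all, since Pard3, Pard6a and Prkcz have more than one listed start. Of these 12, 7 windows of 6 genes (Crb1, Crb2, Pard3, Pard3b, Pard6a and Prkcz) held GGGGNC on either strand, as did 54.5% of all 32851 windows. A match of letters describes the window only.

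PAR6 adaptors bind CDC42 and bring it to the kinase, and of the 3 genes Pard6g was the one whose groups did not overlap. Pard6g was at 198, 182 and 178 CPM in controls 1, 2 and 3 and at 221, 219 and 226 CPM in Insm1 libraries 1, 2 and 3. The Insm1 libraries lay within a narrow band above all controls. The mean was 1.19-fold higher (log2 fold change 0.25, standard error 0.06, 95% interval 0.11 to 0.39), with an edgeR adjusted p of 0.0592, just outside the threshold, and a DESeq2 adjusted p of 0.00801. Over the 6 fits without a library its log2 fold change was between 0.23 and 0.31, and the edgeR adjusted p between 0.0633 and 0.229. Pard6a was at 17.2 ± 1.90 CPM and 18.4 ± 2.49 CPM (SD, n = 3 each), and its libraries overlapped (log2 fold change 0.10, 95% interval -0.24 to 0.43, and between 0.0026 without Insm1 library 1 and 0.20 without Insm1 library 2). Pard6b was at 26.0 ± 4.53 CPM and 23.6 ± 0.975 CPM (SD, n = 3 each), with a log2 fold change of -0.14 and a 95% interval of -0.45 to 0.17. Control 2, at 31.3 CPM, was the high library of Pard6b, and the other five lay between 22.8 and 24.7 CPM. Without control 2 the log2 fold change of Pard6b was 0.01.

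PAR3 scaffolds bind PAR6 and atypical PKC and recruit them to junctions. Pard3 was at 177, 138 and 153 CPM in controls 1, 2 and 3 and at 165, 177 and 146 CPM in Insm1 libraries 1, 2 and 3. The groups overlapped fully, with a log2 fold change of 0.06 (95% interval -0.16 to 0.28, edgeR adjusted p = 0.835), and the sign turned to -0.02 without control 2. Pard3b, a paralog that lacks the region by which PAR3 binds the kinase, was at 17.4, 14.0 and 15.8 CPM in the controls and at 12.2, 11.4 and 12.0 CPM in the Insm1 libraries. Every Insm1 library of Pard3b lay below every control, 1.32-fold lower in the mean (log2 fold change -0.40, 95% interval -0.73 to -0.08, edgeR adjusted p = 0.184, DESeq2 adjusted p = 0.142).

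Atypical PKC is the catalytic part of the complex. Prkci, which encodes PKC iota, was at 102, 99.9 and 102 CPM in controls 1, 2 and 3 and at 86.4, 98.4 and 77.8 CPM in Insm1 libraries 1, 2 and 3. The controls were nearly equal and all Insm1 libraries lay below them, though Insm1 library 2 by only 1.49 CPM. The log2 fold change of Prkci was -0.21 (95% interval -0.41 to -0.01, edgeR adjusted p = 0.265), and it was -0.13 without Insm1 library 3 and -0.30 without Insm1 library 2. Prkcz, which encodes PKC zeta and, from an internal promoter, the kinase fragment PKM zeta, was at 23.1, 22.2 and 21.9 CPM in the controls. In Insm1 libraries 1 and 2 it was lower, at 16.5 and 16.6 CPM, and in Insm1 library 3 it was at 28.0 CPM, above every control. Counts are per gene, so its transcripts are not told apart. The log2 fold change of Prkcz was -0.14 over all libraries (95% interval -0.58 to 0.30, edgeR adjusted p = 0.811) and was -0.44 without Insm1 library 3, -0.0044 without Insm1 library 1 and -0.01 without Insm1 library 2 (edgeR adjusted p = 0.197, 0.995 and 0.992).

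Mpp5, the scaffold between the Crumbs and Par complexes, was at 49.6, 49.1 and 51.1 CPM in controls 1, 2 and 3 and at 45.0, 51.2 and 40.6 CPM in Insm1 libraries 1, 2 and 3. Its groups overlapped through Insm1 library 2 (log2 fold change -0.13, 95% interval -0.36 to 0.10, edgeR adjusted p = 0.596), and the estimate was -0.05 without Insm1 library 3 and -0.22 without Insm1 library 2. Control and Insm1 libraries were apart for 4 of the 10 members, namely Pard3b, Prkci and Crb2 (lower) and Pard6g (higher). The same held for 22.2% of all tested genes, 11.8% lower and 10.4% higher.

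**Figure D2:**
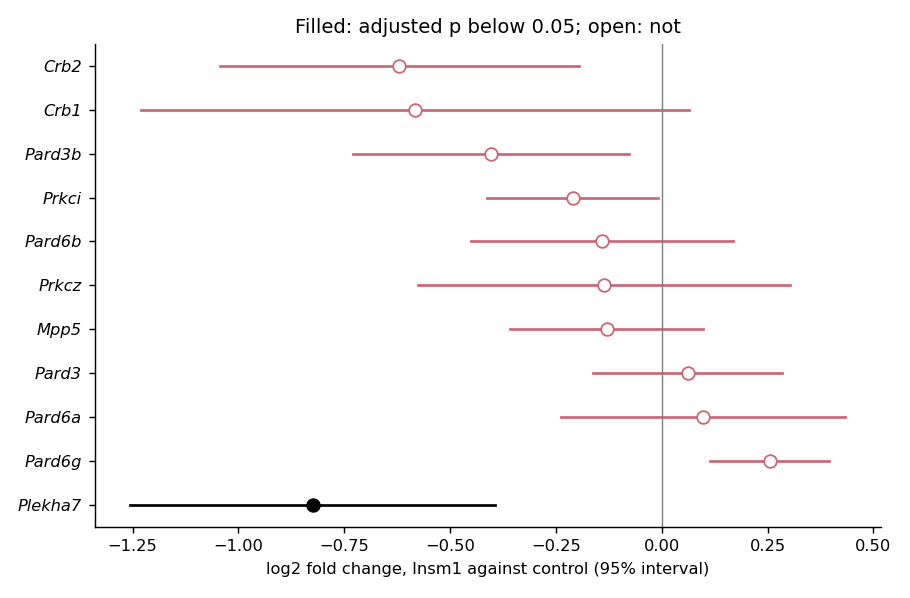
Log2 fold change of Insm1 against control with its 95% interval for the 10 genes (red) and for Plekha7 (black), filled where the adjusted p is below 0.05. Plekha7 is the filled point at -0.82, and every member is an open point, from -0.62 for Crb2 to 0.25 for Pard6g.

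The study's title names Plekha7, found at the adherens junction belt, and members were set against it. It fell from 14.2 ± 1.28 to 8.03 ± 1.83 CPM (SD, n = 3 each; log2 fold change -0.82, 95% interval -1.26 to -0.39, edgeR adjusted p = 0.0495), and that call was lost in the fits without control 1 (adjusted p = 0.114), control 2 (0.0900), control 3 (0.145), Insm1 library 2 (0.151) or Insm1 library 3 (0.159). The 95% intervals of 4 members, Pard3, Pard6a, Pard6g and Mpp5, lay wholly above that of Plekha7, and those of the other 6 reached into it. The share of all tested genes with such an interval was not computed. A gene with no difference and a narrow interval would also lie above, so the count is not read as a trait of the members. The ratio of each member to Plekha7 was also compared between groups within libraries. All ratios share Plekha7 as denominator, so that any gene lower by less than Plekha7 has a higher ratio with Insm1. The groups did not overlap for Plekha7 itself, so a ratio can separate through its denominator alone. Neither the common sign nor the separation of the ratios says anything separate about the members. The difference in mean log2 ratio was 0.18 for Crb2, 0.24 for Crb1, 0.91 for Pard3 and 1.10 for Pard6g. The ratios of the groups did not overlap for 6 members, Pard3, Pard6a, Pard6b, Pard6g, Prkci and Mpp5, each with an exact two-sided permutation p = 0.1, the smallest that 3 libraries against 3 allow, and an adjusted p of 0.167 over the 10 members. Of these, Pard3, Pard6a, Pard6b and Mpp5 overlapped between groups in CPM. The share of all tested genes with such ratios was not computed. For Crb2 and Crb1 the ratio overlapped (exact permutation p = 0.7 and 0.6), and without Insm1 library 2 its difference was -0.05 and -0.07.

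Levels of different genes can be compared only per length of transcript, and the deposited TPM values do not give that. The length implied by the deposited counts and TPM equals the genomic span of the gene, introns included, within 5% for 97.2% of 9986 genes compared, and equals the summed length of its exons for 4.12%. By the deposited values Pard6a, in a gene of 2349 bases, was the most abundant member at 65.3 TPM in controls, and Pard3, in a gene of 548394 bases, was at 2.54 TPM. TPM was therefore recomputed from the counts with the union of annotated exons, 1582 bases for Pard6a and 14506 bases for Pard3, and is called exon TPM here. On that scale Pard6a and Pard3 were at 39.7 ± 5.01 and 39.3 ± 5.01 exon TPM in controls (SD, n = 3 each).

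In exon TPM Pard6g stood first at 216 ± 11.5 in controls (SD, n = 3), higher than 96.2% of all genes, and Prkci second at 66.6 ± 1.75 (SD, n = 3). Pard6a and Pard3 followed and overlapped each other. Then came Pard6b at 27.9 ± 4.48, Mpp5 at 20.8 ± 0.806, Crb2 at 17.5 ± 1.14 and Prkcz at 12.9 ± 0.332 exon TPM (SD, n = 3 each). Pard3b was at 4.36 ± 0.496 and Crb1 at 1.19 ± 0.208 exon TPM (SD, n = 3 each). Among neighbours in this order the control libraries overlapped only for Pard6a and Pard3, and in the Insm1 libraries also for Crb2 and Prkcz. The order depends on which exons count, since with the longest protein-coding transcript in place of all exons Pard3 was at 70.0 and came second to Pard6g at 154, ahead of Prkci at 56.1.

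One paralog held most of each family. Pard6g made up 76.1% ± 2.54 of the exon TPM of the 3 PAR6 genes in controls and 79.2% ± 1.18 with Insm1 (SD, n = 3 each), whereas by the deposited TPM it made up 23.0% and Pard6a 65.4%. Pard3 held 90.0% ± 0.210 of the Pard3 and Pard3b total in controls and 92.5% ± 0.808 with Insm1 (SD, n = 3 each), and Prkci 83.8% ± 0.324 and 82.9% ± 6.03 of the atypical PKC total (SD, n = 3 each). Crb2 held 93.1% ± 1.42 and 92.8% ± 1.35 of the Crumbs total (SD, n = 3 each). Crb3, the short epithelial Crumbs protein, had between 0 and 4 counts in any library. With Insm1 the share of Pard3 was higher in every library than in any control, and that of Pard6b, at 9.87% ± 1.76 and 7.80% ± 0.503 (SD, n = 3 each), lower in every library. Both had an exact two-sided permutation p = 0.1 and an adjusted p of 0.3 over 6 shares. A share also moves with the other genes of its family, and in CPM both Pard3 and Pard6b overlapped between groups. The separation of their shares is therefore not read as a change of these genes themselves. For Prkci the control shares lay between 83.5% and 84.1%, Insm1 libraries 1 and 2 lay above them at 85.7% and 87.1%, and Insm1 library 3 lay below at 76.0%. Its mean was thus 0.84 points lower with Insm1, and 2.62 points higher without Insm1 library 3.

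**Figure D3:**
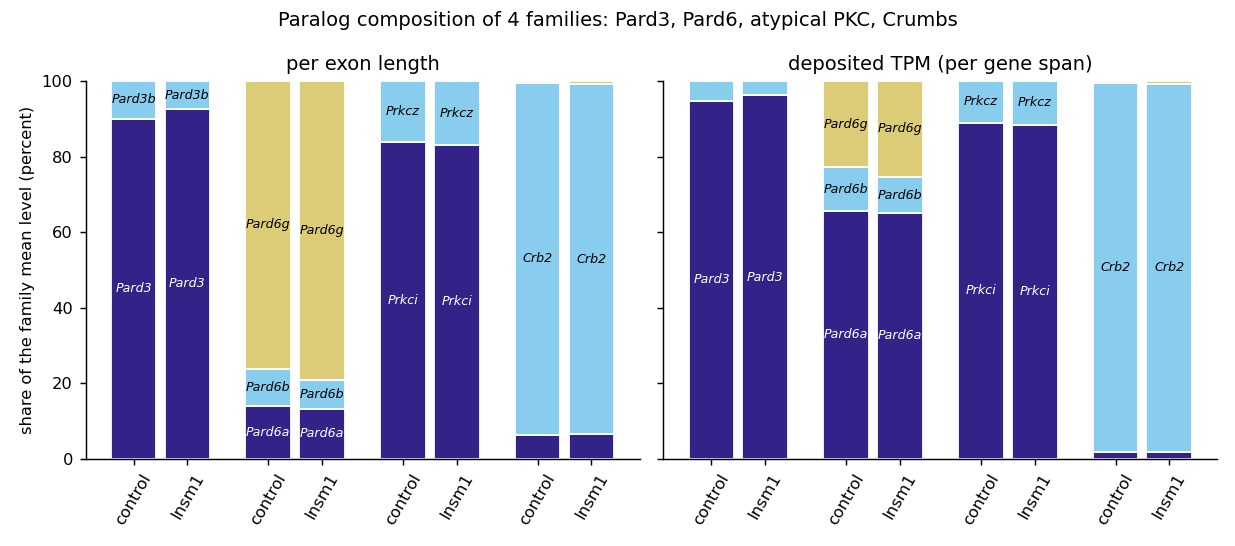
Share of each paralog in the mean level of its family, in percent, in control and Insm1 libraries, by exon TPM (left) and by the deposited TPM, which divides by gene span (right). Pard6g is the main PAR6 gene at the left, and Pard6a takes that place at the right.

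Cell type markers differed between the same libraries. Of 8 apical progenitor markers 4 fell (Vim, Nes, Fabp7 and Slc1a3), 0 rose and 4 did not pass, where 2.12% of all tested genes fell. Fabp7 and Slc1a3 were called in all 6 fits without a library, whereas Vim lost the call without control 3, and Nes without control 1, control 3 or Insm1 library 2 (edgeR adjusted p up to 0.0563 and 0.0557). Their summed level was 2938 to 3420 CPM in controls and 2189 to 2693 CPM in Insm1 libraries, and Fabp7, a fatty acid-binding protein of radial glia, fell from 245 ± 8.0 to 136 ± 8.40 CPM (SD, n = 3 each). Of 6 projection neuron markers 3 rose (Tubb3, Neurod6 and Bcl11b), against 1.23% of all tested genes, and their sum was 6176 to 6491 CPM in controls and 7169 to 7741 CPM with Insm1. Tubb3 was called in all 6 fits without a library. Neurod6 kept the call only without control 2 or Insm1 library 1, and Bcl11b only without control 2 (edgeR adjusted p up to 0.107 and 0.106 in the other fits). Of 4 basal progenitor markers 1 rose, Mfng, a modifier of Notch, and it too was called only in the fit without control 2. Insm1 library 3 was the lowest of all 6 libraries for 7 of the 8 apical progenitor markers and for 5 of the 10 members (Pard6b, Prkci, Crb1, Crb2 and Mpp5), against 17.3% of all tested genes, a count made after the values were seen. In these bulk libraries fewer cells of a type and less RNA per cell cannot be told apart, and the part of cell composition in the member values was not tested.

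**Figure D4:**
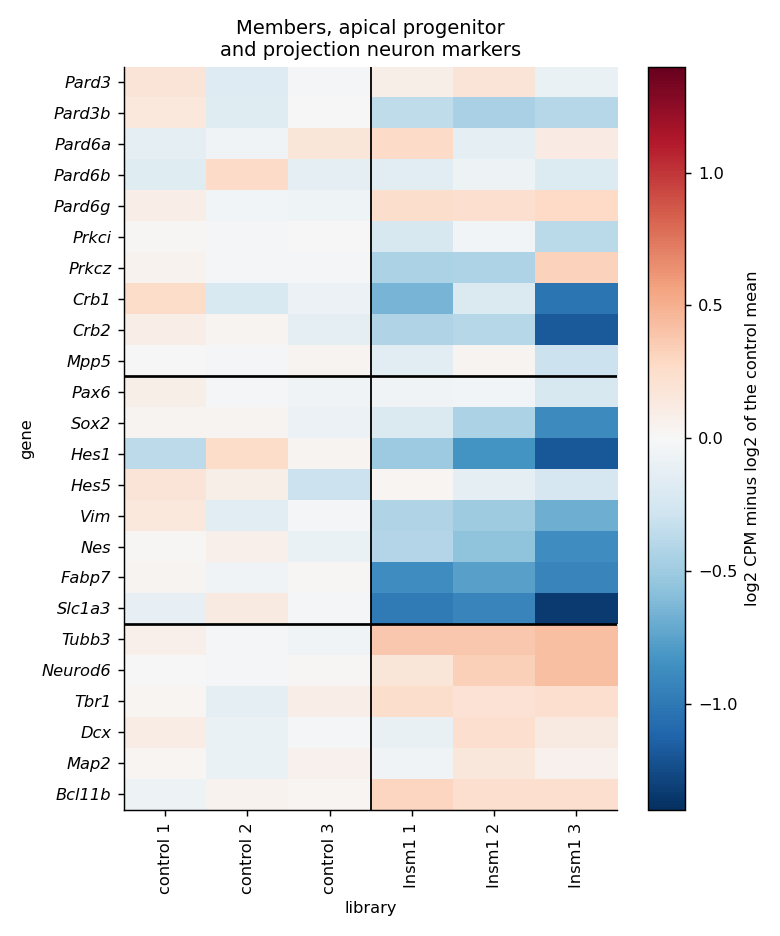
Log2 CPM of each gene in each library minus log2 of its control mean, for the 10 members (top), 8 apical progenitor markers (middle) and 6 projection neuron markers (bottom). Crb1, Crb2, Hes1 and Slc1a3 are bluest (lowest) in Insm1 library 3, and Pard6g and Tubb3 are red (higher) in all 3 Insm1 libraries.

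Genes that work with the 2 complexes were read from the same fit in 6 lists. Of the Crumbs partners 7 of 11 could be tested and 0 were called (median log2 fold change -0.15), with 2 lower at an unadjusted p below 0.05 in edgeR, where 9.69% of all tested genes were lower. DESeq2 called 1 of them, Amotl2, an angiomotin, with an adjusted p of 0.0139. Lin7c, which binds PALS1, was at 406 ± 27.5 and 429 ± 39.3 CPM (SD, n = 3 each). Patj, listed as Inadl, the third component of the core Crumbs complex and named here after its values were seen, was at 27.8 to 34.0 CPM in controls and 21.7 to 23.5 CPM with Insm1 (log2 fold change -0.39, edgeR adjusted p = 0.116). Of the regulators of the Par complex 0 of 7 were called (median -0.02), and 0 by DESeq2. At an unadjusted p below 0.05 in edgeR 1 was higher, against 7.56% of all tested genes. Cdc42 was at 461 ± 17.5 and 429 ± 19.6 CPM and Rac1 at 424 ± 15.3 and 399 ± 24.8 CPM (SD, n = 3 each), and reads of Rac1 may be shared with Daglb, whose exons overlap it.

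PAR3 is tethered at junctions by adhesion proteins. For Cdh2, which encodes N-cadherin, the level was 707 ± 49.5 and 717 ± 51.0 CPM (SD, n = 3 each; log2 fold change 0.02), whereas the junctional adhesion molecule Jam3 was at 66.7 ± 6.10 and 54.2 ± 5.36 CPM (SD, n = 3 each; log2 fold change -0.30, edgeR adjusted p = 0.169). Of these 6 anchors 0 were called, with 3 lower at an unadjusted p below 0.05, Jam2, Jam3 and Nectin3, against 9.69% of all tested genes, and a median of -0.14. DESeq2 called 1, Nectin3, lower (adjusted p = 0.0124). Of 11 basolateral proteins that oppose the apical complexes 0 were called, also at an unadjusted p below 0.05 and by DESeq2, and their median was 0.05. Llgl1, a substrate of atypical PKC, was at 320 ± 9.34 and 337 ± 21.1 CPM (SD, n = 3 each), while Erbin, a relative of SCRIB, was at 236 to 246 CPM in controls and 213 to 240 CPM with Insm1.

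By edgeR the called genes of the 6 lists were 2 of the 9 genes of asymmetric division and spindle orientation, and limma-voom called the same 2 and no other. Over the 45 tested genes of the 6 lists this was 4.44%, near the 3.35% of all tested genes called. At an unadjusted p below 0.05 in edgeR 1 of the 9 was higher and 3 lower, against 7.56% and 9.69% of all tested genes. Numbl, which encodes the NUMB-like protein, rose from 116 ± 0.309 to 150 ± 2.35 CPM (SD, n = 3 each; log2 fold change 0.37, edgeR adjusted p = 0.0111), and lost the call without control 3 (adjusted p = 0.0556). Gnai1, a G protein alpha subunit that anchors the spindle machinery at the cortex, fell from 63.2 ± 2.30 to 41.8 ± 2.93 CPM (SD, n = 3 each; log2 fold change -0.60, edgeR adjusted p = 0.00927), and was called in all 6 fits without a library. Of 5 proteins of the apical membrane 0 were called, with 2 lower at an unadjusted p below 0.05, Prom1 and Nherf1, against 9.69% of all tested genes. Ezr was at 356 ± 28.5 and 387 ± 19.2 CPM and Rdx at 372 ± 23.2 and 366 ± 8.48 CPM (SD, n = 3 each), both linkers of membrane to actin. DESeq2 called Nherf1, listed as Slc9a3r1, a scaffold that binds them, lower (adjusted p = 0.0357, edgeR adjusted p = 0.0972).

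**Figure D5:**
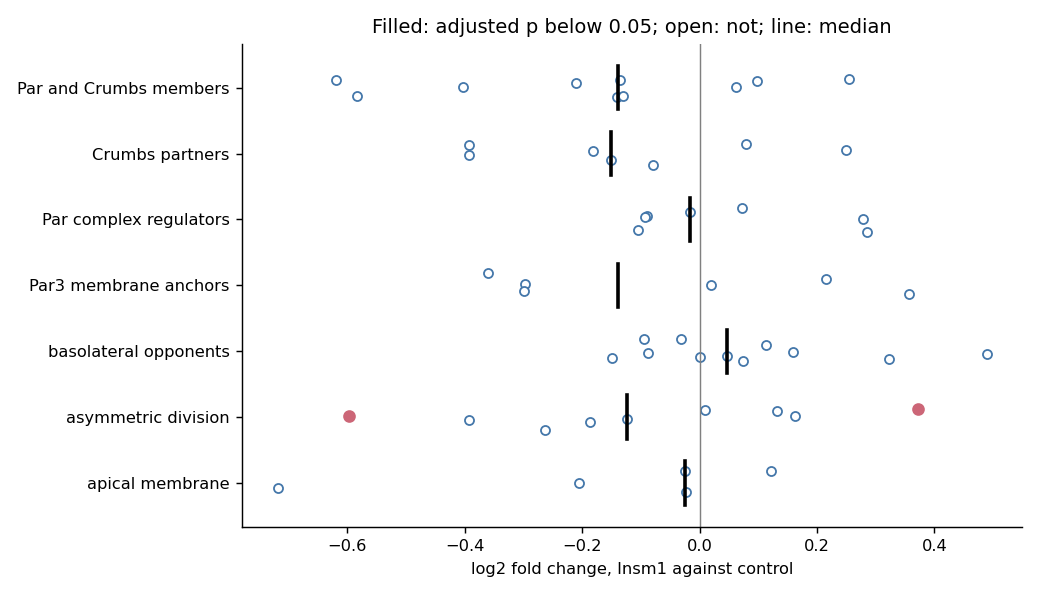
Log2 fold change of Insm1 against control for the 10 members and for the tested genes of the 6 lists of partner genes, 1 point a gene, with filled points at an adjusted p below 0.05 and the vertical line at the list median. The filled points are Gnai1 at -0.60 and Numbl at 0.37, both in the asymmetric division list.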

How the data were processed

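RNA-seq libraries of 3 control and 3 Insm1 samples were used as 1 sample each. Oligo-dT-primed, template-switched cDNA had 12 PCR cycles before shearing and 15 after it, and single reads were 75 bases long, per the labels' protocols, which mention no molecular identifiers. The submitters' processing notes name bcl2fastq, TopHat2 2.0.13, Bowtie and GRCm38. Which counter, strand option and gene annotation were used is not stated in them.

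The authors deposited whole-number counts per Ensembl gene, and TPM values that equal those counts divided by the gene span and scaled to a sum of 1000000. The design had assumed transcript-length TPM, so family shares were computed from counts over the union of exons in GENCODE M21 (GRCm38), which holds 21569 of the 22001 identifiers. Genes were filtered by filterByExpr, scaled by TMM (factors 0.975 to 1.02) and tested with edgeR 4.0.16 (R 4.3.3), with a robust two-sided quasi-likelihood fit to group alone. The fit was also run on counts simulated from its own dispersions, with genes and libraries independent. Such counts hold no shifts shared by many genes of a library, so they do not test the calls against these. Intervals were built from the F statistic. Libraries of one group differed beyond sampling noise, with a chi-square per degree of freedom of 12.9 to 32.5. Alternatives used limma 3.58.1 and DESeq2 1.42.0.

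The members and lists were chosen with earlier results of these data known. Named genes are all members, Insm1, Plekha7, up to 4 called genes of each list of partners or else the 2 of highest exon TPM, and the most abundant marker of each cell type list, of which only some are printed. Others were named after their values were seen. Epb41l5, Epb41l4b and Ptprc were not analysed here.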

Additional observations from a re-analysis of the deposited data

How the results depend on the processing

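Member log2 fold changes kept their sign in all fits except those of Pard3 under limma on log2(TPM + 1) (-0.00167) and log2(TPM + 0.1) (-0.00137) and without control 2 or Insm1 library 2 (-0.0180 to 0.167 over the fits without a library), and that of Pard6b without control 2 (-0.210 to 0.0133 over those fits). Members were called only by DESeq2 (2) and at an adjusted p below 0.1 (1), and 0 with any library left out. The members' median was -0.22 under log2(TPM + 0.1) and between -0.20 and -0.12 with single libraries left out. Called genes numbered 454 as reported, 1022 by DESeq2, 100 and 96 under log2(TPM + 1) and log2(TPM + 0.1), 834 and 90 at adjusted p below 0.1 and 0.01, and 116 to 645 with single libraries left out (116 without control 3, 194 without Insm1 library 2, 218 without Insm1 library 3 and 234 without control 1). Of the partner lists 2 genes were called as reported, 5 by DESeq2, 0 under each TPM scale, 4 and 1 at those thresholds, and 1 to 3 with single libraries left out.

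Family shares in controls depend on the length used. With the deposited TPM, Pard3 held 94.8%, Pard6a 65.4%, Pard6g 23.0%, Prkci 88.9% and Crb2 97.7%, and with the longest coding transcript Pard3 93.5%, Pard6a 16.8%, Prkci 79.7% and Crb2 86.2%. The differences with Insm1 turned in sign with single libraries left out for Pard6a (range -1.80 to 0.0416), Prkci (-2.92 to 2.62) and Crb2 (-0.983 to 0.427), as did the ratio to Plekha7 for Crb1 (-0.0722 to 0.431) and Crb2 (-0.0472 to 0.357). The 2 other lengths were added after seeing the data.

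With the replicate number as a block 331 genes and 0 members were called. Same-numbered libraries correlated at 0.0785, 0.0386 and -0.0482 in their deviations from the group means, and control 2 correlated best with Insm1 library 3, so the numbers were not taken to pair samples. Raw counts were lowest for Crb1, at 72 to 174 a library, and the part of counting error in its interval was not tested.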
